A study of Mus musculus with 18 samples.

Results

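The comparison described here sets short-term haematopoietic stem cells (ST) against long-term haematopoietic stem cells (LT) from mice given the vehicle, corn oil, for 2 weeks. Its members are the 3 ST and the 3 LT libraries of the oil arm, chosen by their sample titles, 6 of the 18 libraries of the series, and all 14419 listed genes were compared. The study gave mice tamoxifen, a ligand of the estrogen receptors, or oil, sorted LT cells, ST cells and multipotent progenitors (MPP) from their marrow, and profiled the RNA in 3 biological replicates of each group. All groups came from adult male C57BL/6 mice with no genetic change named in the labels. The LT and ST groups were treated for 2 weeks and the MPP groups for 1 week. Neither the surface markers used for sorting nor the number of mice or cells per library is stated in the labels. Whether LT and ST libraries that share a letter came from the same mice is also not stated.

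Long-term stem cells can rebuild the blood of a transplanted host for life, divide rarely, and depend on signals of the marrow niche such as TGF-beta and cell adhesion. Short-term stem cells lie just downstream. They give rise to all blood lineages for a limited time and enter the cell cycle more often. Transcripts of mature lineages can already be found at low level in such cells, which is known as lineage priming.

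Values are the authors' normalised values per gene, not divided by transcript length, so levels are compared between samples and not between genes. Triplets of values are given in the order of libraries A, B and C, and a difference is ST minus LT on the log2(value + 1) scale with its standard error. Reads over the listed genes ran from 3361891 to 4560482 in the LT libraries and from 2728800 to 3267591 in the ST libraries, so every ST library was shallower than every LT library. The mitochondrial ribosomal RNAs took 18.2 to 18.7% of the reads in LT and 18.3 to 21.9% in ST.

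In oil, 4104 of 14419 genes passed an adjusted p of 0.05 (limma, Benjamini-Hochberg), which is 28.5% of the genes. Of these, 1802 were higher in ST (12.5% of all genes) and 2302 lower in ST (16.0%), and 757 and 672 of them differed by more than 2-fold. The 3 values of one population lay entirely above those of the other for 6366 genes (44.2%). The median difference of all genes was 0.01 and their interquartile range -0.38 to 0.41. These shares and this median are the background for each group of genes below. By share of members called, the lists of granulocyte-monocyte, mitosis and respiratory chain genes came first on the ST side, and those of erythroid genes, long-term stem cell genes and stem cell transcription factors on the LT side.

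**Figure D1:**
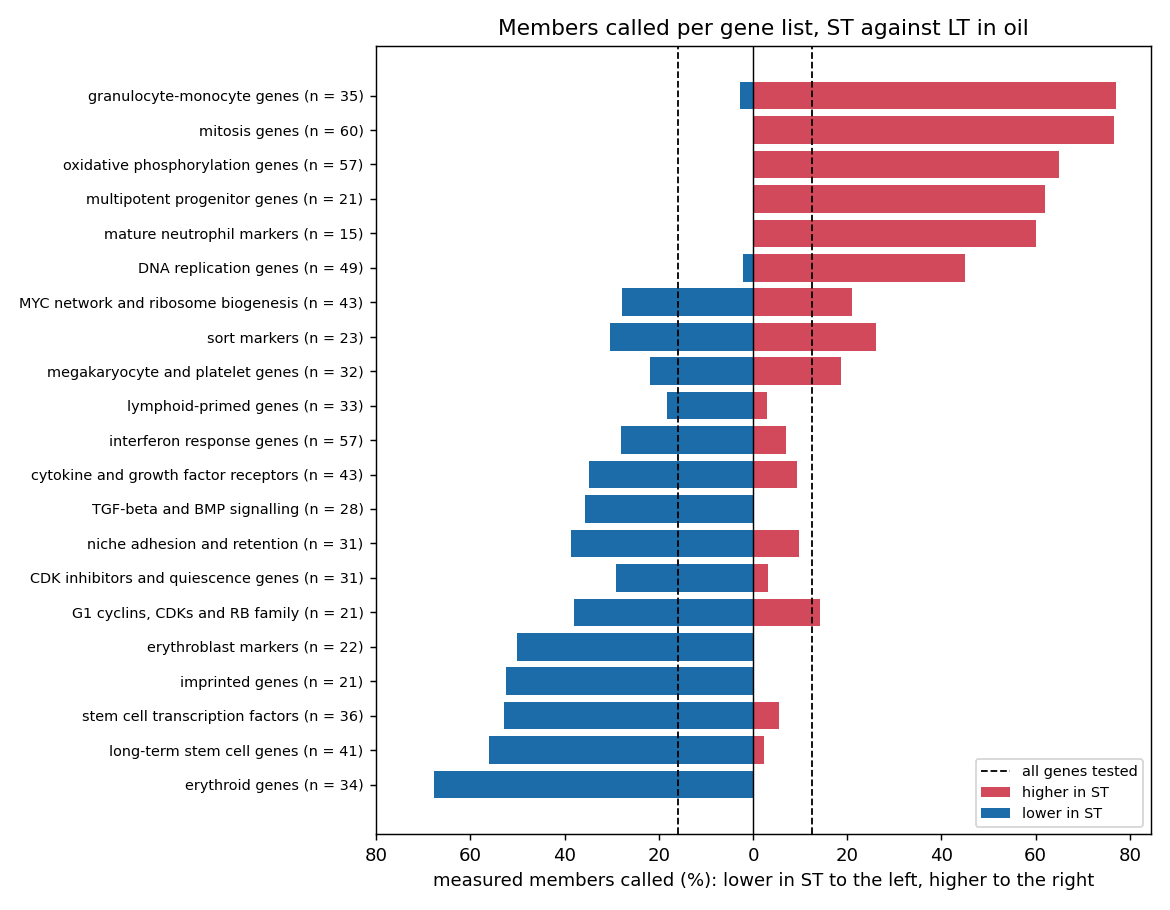
Share of the measured members that passed the threshold in a selection of the 36 gene lists, higher in ST to the right and lower in ST to the left (%). The number of measured members is beside the name. Dashed lines mark the shares over all genes tested, 12.5% higher and 16.0% lower, and the granulocyte-monocyte and mitosis lists reach furthest right and the erythroid list furthest left.

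Transcript length moved with the comparison. Of the 13693 genes with a length in the GENCODE annotation, 20.7% of the shortest 1 in 5 were higher and 11.4% lower in ST, against 4.53% and 30% of the longest 1 in 5. Genes higher in ST had a median length of 865 bases, genes lower in ST 2039 bases and genes not called 1391 bases. The slope of expression on length was negative in all 6 ST libraries of the series (-0.137 to -0.0777 log2 units per doubling of length) and positive in all 12 LT and MPP libraries (0.0130 to 0.126). Principal component 2 of all 18 libraries (20.2% of the variance) was likewise negative in all 6 ST libraries and positive in the 12 others. The sample titles number the LT and MPP libraries in a single run and the ST libraries in a separate run. The population and any separate handling of its libraries therefore cannot be told apart. The same limit holds wherever ST is set against both LT and MPP below, and the MPP groups were treated for 1 week only. With the trends on length and GC content removed within each library, 1656 genes were higher (12.1%) and 2124 lower in ST (15.5%) of the 13693. This alternative was chosen after the relation to length was seen. Of the calls with a length, 1385 of 1718 higher and 1742 of 2274 lower genes were called in the same direction after this step.

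**Figure D2:**
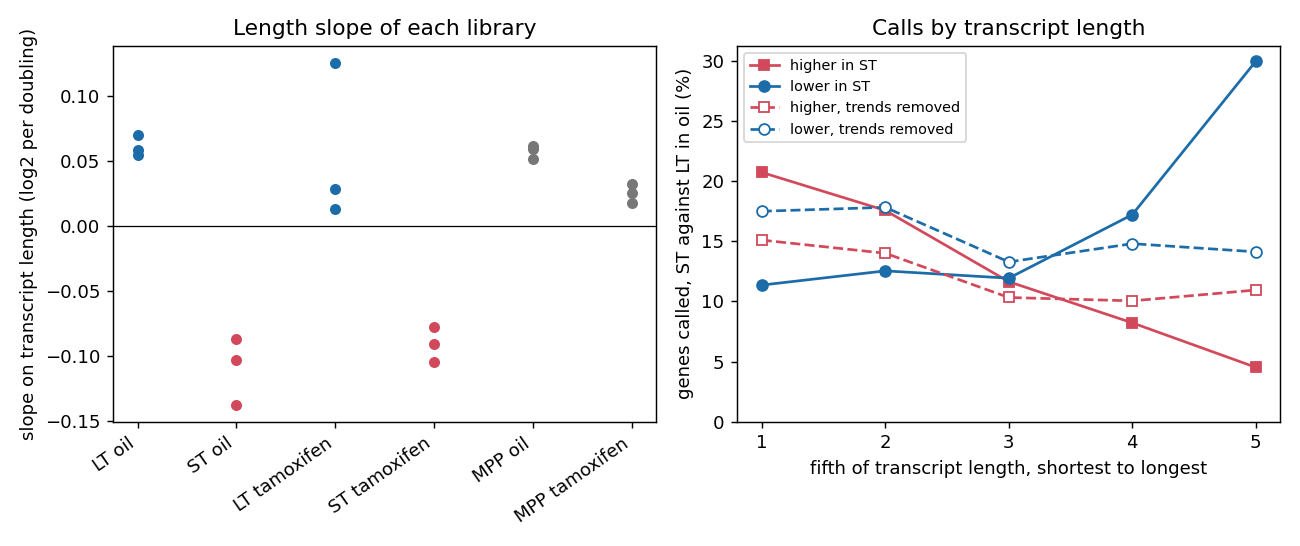
Left, slope of each library's expression on transcript length (log2 per doubling), 1 point per library, in the 6 groups. Right, share of genes called higher or lower in ST against LT in oil (%) by length class (5 classes of equal rank width, shortest to longest), as tested (solid) and with length and GC trends removed (dashed); the solid lines cross from the shortest to the longest class and the dashed lines are flatter.

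Among the genes for surface proteins used to sort or define stem cells, 6 of 23 were higher and 7 lower in ST. Cd48, a SLAM family receptor absent from the surface of long-term stem cells, was listed at 13.7, 7.13 and 13 in LT and 108, 109 and 81.9 in ST. All 3 ST values lay far above the LT values (3.07 ± 0.23, adjusted p = 5.24e-10), 8.86-fold between the means. Cd34, the sialomucin gained when long-term stem cells of the mouse leave that state, was listed at 171, 125 and 218 in LT and 314, 358 and 458 in ST, without overlap (1.15 ± 0.23, adjusted p = 0.0014). Cd27, a TNF receptor family member of progenitors (0.86 ± 0.14, adjusted p = 3.35e-05), Cd244 (2.15 ± 0.35, adjusted p = 9.52e-05) and the Fc receptor Fcgr3 (2.49 ± 0.35, adjusted p = 6.18e-06) were also higher in ST. Itga2b, the platelet integrin subunit CD41, was higher as well (0.78 ± 0.25, adjusted p = 0.0212), a call that was lost without LT library B, LT library C or ST library B (adjusted p up to 0.138 over the alternatives).

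On the other side, Kit, the stem cell factor receptor carried by both populations, was listed at 1032, 1075 and 1152 in LT and 559, 629.8 and 707 in ST, without overlap (-0.79 ± 0.11, adjusted p = 5.4e-06). Eng, the TGF-beta co-receptor endoglin (-1.38 ± 0.16, adjusted p = 3.43e-07), and Abcg2, the efflux pump behind the side population (-0.63 ± 0.16, adjusted p = 0.00345), were lower in ST. Tek, the angiopoietin receptor Tie2, was lower too (-0.80 ± 0.22, adjusted p = 0.00702), but not with length and GC trends removed (adjusted p 0.100). Cd93 and Ly6e were called lower close to the threshold (adjusted p 0.0208 and 0.048), and both calls were lost without LT library A, LT library C, ST library A or ST library B, and that of Ly6e also without LT library B. The Cd93 call was also lost with quantile normalisation and without a variance trend, and with length and GC trends removed its difference was 0.0451 (adjusted p = 0.833). The Ly6e call was also lost without a variance trend and with edgeR on the recovered reads.

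Slamf1, which encodes CD150 and marks long-term stem cells, was listed at 28.2, 30 and 18.2 in LT and 25.2, 24 and 8.06 in ST. The groups overlapped and the difference did not pass (-0.52 ± 0.35, adjusted p = 0.283), and it passed under none of the alternatives. In the MPP libraries of the oil arm, sorted after 1 week, Slamf1 averaged 0.785 ± 0.455 (SD, n = 3), below every LT and ST value. Procr, the endothelial protein C receptor of long-term stem cells, was at 42, 51.6 and 62 in LT and 26.5, 33.3 and 38.8 in ST (-0.64 ± 0.39, adjusted p = 0.239), and Flt3, the receptor gained by multipotent progenitors, at 79.7, 50.5 and 119 in LT and 135, 92.9 and 197 in ST (0.78 ± 0.38, adjusted p = 0.151). Neither passed, although Procr passed with only these 6 libraries in the fit. Flt3 passed with edgeR on the recovered reads, with length and GC trends removed and with the replicate letter as a block (adjusted p = 4.13e-05 with the block). Flt3 averaged 681 ± 31 in the MPP libraries (SD, n = 3), above every LT and ST value. Thy1, higher in ST on average (0.93 ± 0.36, adjusted p = 0.0528), passed without LT library B, LT library C, ST library A or ST library C. It also passed with library weights, without a variance trend, with the replicate letter as a block and without LT tamoxifen library A in the shared fit. Ly6a (-0.48 ± 0.25, adjusted p = 0.163) passed with that block or without ST library C. Esam, Cd9, Cd38, Itga2 and Il7r passed neither here nor under any alternative. Of 10 markers of long-term stem cells (Slamf1, Procr, Thy1, Tek, Mecom, Hlf, Fgd5, Hoxb5, Ctnnal1 and Vwf), 6 were lower in ST and 4 were not called, and of 5 markers of short-term stem cells and multipotent progenitors (Cd34, Flt3, Cd48, Cd27 and Itga2), 3 were higher in ST and 2 were not called. No marker of either kind was called in the direction opposite to its label in the main fit. Thy1, counted with the markers of long-term stem cells, was called higher in ST under the alternatives named above. Of 5 markers carried by both populations (Kit, Ly6a, Gata2, Runx1 and Tal1), 4 were lower in ST, so lower calls were not limited to markers of long-term stem cells.

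**Figure D3:**
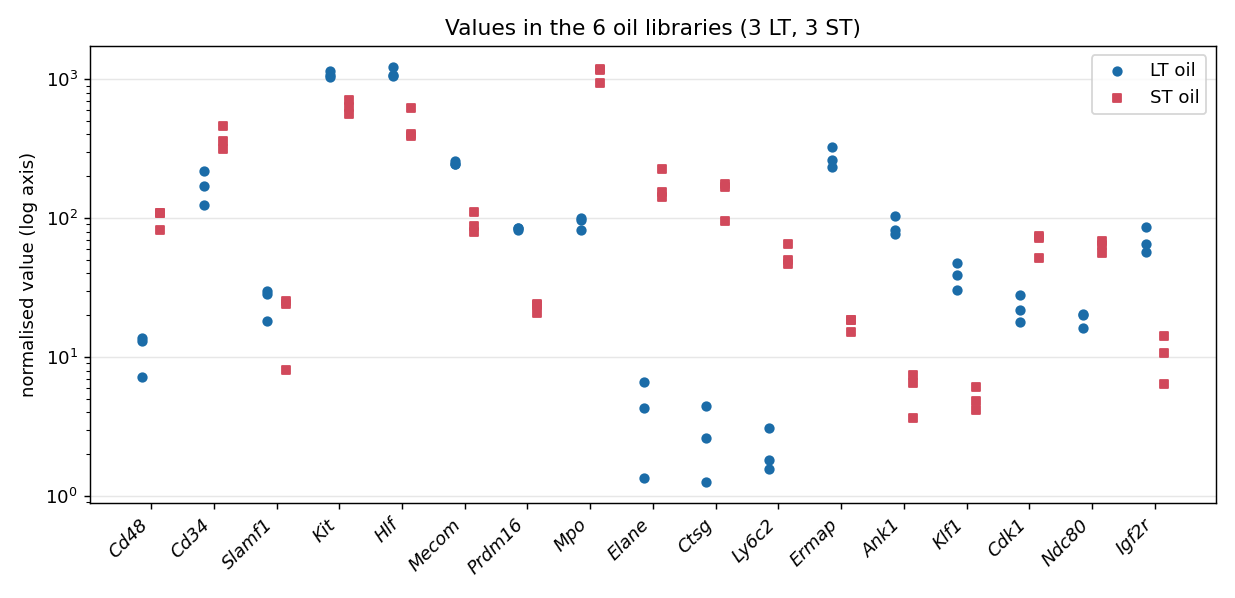
Normalised value (log axis) of 17 genes in the 3 LT libraries (circles) and the 3 ST libraries (squares) of the oil arm, 1 point per library. The groups overlap for Slamf1 and are apart for the other genes shown, with the widest gaps for Elane, Ctsg, Ly6c2 and Ermap.

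Genes of the long-term stem cell programme were mostly lower in ST. Of 41 measured members, 23 were lower and 1 higher, with a median of -1.03, and 22 were lower with length and GC trends removed. The list summed to 4892 to 5212 in LT, 2150 to 2927 in ST and 3247 to 3471 in MPP libraries. The MPP libraries, from 1 week of treatment, thus lay between LT and ST, with ST lowest. Population and separate handling of the ST libraries cannot be told apart here either. Hlf, a PAR bZIP factor of stem cells, was listed at 1063, 1048 and 1229 in LT and 391, 404 and 623 in ST (-1.27 ± 0.18, adjusted p = 2.04e-05). Mecom, which encodes the zinc finger factor Evi1, was listed at 246, 257 and 247 in LT and 79.8, 88.3 and 111 in ST (-1.43 ± 0.17, adjusted p = 1.1e-06). Prdm16, its relative, was at 84.5, 85.2 and 82.3 in LT and 24.2, 23.7 and 20.7 in ST (-1.84 ± 0.18, adjusted p = 2.59e-08). In all 3 genes the populations did not overlap, and in Prdm16 the replicates of each population lay within a narrow range.

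Other members pointed the same way. Mllt3, a partner of the elongation complex that sustains stem cells, was 2.84-fold higher in LT (-1.50 ± 0.15, adjusted p = 4.67e-08). Tgm2, a transglutaminase, was listed at 96.8, 99.2 and 70.3 in LT and 6.75, 19.4 and 15.4 in ST (-2.69 ± 0.29, adjusted p = 2.89e-07), and Aldh1a1, a retinaldehyde dehydrogenase, at 63.5, 68.8 and 65.9 in LT and 10, 12.8 and 18.9 in ST (-2.21 ± 0.29, adjusted p = 1.95e-06). Fgd5 (-1.84, adjusted p = 6.93e-06), Ctnnal1 (-1.11, adjusted p = 0.000414) and Vwf, the platelet adhesion protein of a platelet-biased stem cell subset (-0.88, adjusted p = 0.000187), were lower in ST, whereas Hoxb5 was not called (-0.42, adjusted p = 0.455). The member that was higher in ST was Selp, which encodes the adhesion molecule P-selectin (1.28, adjusted p = 0.00258). Fgd5, Ctnnal1, Hoxb5 and Selp, like other members named beyond the rule, were singled out after their values were seen.

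Among transcription factors of stem cells, 19 of 36 were lower and 2 higher in ST (median -0.64). Here too ST had the lowest sums, 4206 to 5051, against 6446 to 6814 in LT and 5763 to 6108 in MPP libraries. Tal1 was listed at 193, 227 and 201 in LT and 112, 107 and 94.8 in ST (-0.98 ± 0.14, adjusted p = 1.07e-05), Gata2 changed by -0.67 (adjusted p = 0.00788) and Runx1 by -0.51 (adjusted p = 0.00404). These 3 factors belong to the core regulators shared by both populations, and their differences were smaller than those of Prdm16 or Mecom. Meis1 (-0.29), Erg (-0.10), Lmo2 (0.15) and Myb (-0.21) did not pass. The members higher in ST were Cebpa, the master factor of granulocyte and monocyte fate (2.26, adjusted p = 0.000319), and Lyl1 (0.69, adjusted p = 0.0129). Of 16 measured Hox genes, 3 were lower and none higher, a share lower near the 16.0% of all genes. Among the 3 were Hoxa6 and Hoxb3, close to the threshold (adjusted p 0.0185 and 0.0491). Hoxa6 was lost without LT library A, LT library B or ST library B, and Hoxb3 was lost without any one of the 6 libraries except ST library B. The Hoxb3 call was also lost with a pseudocount of 0.5, with no pseudocount, without a variance trend, and with edgeR or DESeq2 on the recovered reads.

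Genes of granulocytes and monocytes were among the largest rises in ST. Of 35 measured members, 27 were higher and 1 lower, with a median of 1.75. Elane, which encodes neutrophil elastase of the primary granules, was listed at 1.35, 6.6 and 4.32 in LT and 154, 224 and 142 in ST (5.23 ± 0.58, adjusted p = 2.82e-05). Ctsg, the granule protease cathepsin G, was listed at 2.61, 4.44 and 1.25 in LT and 177, 168 and 96 in ST (5.34 ± 0.54, adjusted p = 8.37e-06). Mpo, myeloperoxidase, was listed at 97.2, 99.5 and 82.3 in LT and 945, 1185 and 1166 in ST (3.55 ± 0.41, adjusted p = 4.19e-05). Every ST value lay above every LT value in these 3 genes, and the means differed 42.4-fold, 53.1-fold and 11.8-fold.

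Ms4a3, a gene of granulocyte-monocyte progenitors, was listed at 0.521, 0.404 and 0.418 in LT and 28.8, 46.6 and 15.7 in ST (4.31 ± 0.38, adjusted p = 8.64e-09). Its LT values rest on few reads, and its difference ran from 3.95 to 6.53 over the alternatives. Clec12a, a myeloid lectin receptor, was listed at 5.11, 8.21 and 3.2 in LT and 85.4, 76.4 and 58.8 in ST (3.57 ± 0.43, adjusted p = 2.47e-05), and Plac8 at 24.1, 14.4 and 21.6 in LT and 162, 169 and 121 in ST (2.87 ± 0.24, adjusted p = 3.95e-08). Both separate the populations completely, as do Igsf6 (3.18 ± 0.42, adjusted p = 2.04e-05), Rab44, a Rab GTPase outside the list (3.23 ± 0.57, adjusted p = 0.000857), and Tyrobp, the adaptor of activating myeloid receptors (2.73 ± 0.23, adjusted p = 3.3e-09). Ly6c2 rose from 2.16 ± 0.823 to 53.7 ± 9.7 (SD, n = 3 each; 4.13 ± 0.26, adjusted p = 4.73e-11), with the limit that its near-identical neighbour Ly6c1 could share reads with it. Irf8, a factor of monocyte fate, also rose (2.07, adjusted p = 0.000769). Sfpi1, which encodes PU.1 (0.52, adjusted p = 0.241), Gfi1 (0.70, adjusted p = 0.0535) and Csf1r (0.43, adjusted p = 0.527) did not pass, and Gstm1, a glutathione transferase, was the member that fell (-0.84 ± 0.17, adjusted p = 0.000371).

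Genes of mature neutrophils were partly higher in ST. Of 15 measured markers, 9 were higher and none lower, and their summed value was 118 to 165 in LT, 309.7 to 492 in ST and 400.3 to 991 in MPP libraries. The count was 5 without LT library C and 3 without ST library B, the library with the highest S100a9 value (9.07, 20.1 and 6.82 in LT and 61.7, 135 and 47.1 in ST; 2.65 ± 0.69, adjusted p = 0.0116), and the S100a9 call was lost without either library. The secondary granule genes Ngp (0.83, adjusted p = 0.31), Ltf (0.35, adjusted p = 0.763) and Lcn2 (-0.28, adjusted p = 0.787) did not pass. None of the 15 markers was listed at 0, because every listed value includes 0.5 read, so a listed value does not show detection. Fcnb, listed at 0.104, 0.673 and 0.139 in LT, had 2 reads in the 3 LT libraries together. The part of mature neutrophils in the granulocyte-monocyte values was not tested. In such bulk samples, fewer cells of a type and less RNA per cell cannot be told apart.

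Within the list of plasma cell, dendritic, mast and eosinophil markers, 6 of 20 were higher and 2 lower in ST. Cpa3, mast cell carboxypeptidase, was listed at 17.4, 12.8 and 14.3 in LT and 101, 104 and 68.2 in ST (2.52 ± 0.31, adjusted p = 1.48e-06), and Ms4a2, the beta chain of the IgE receptor, at 0.313, 1.21 and 0.418 in LT and 11.4, 9.44 and 8.65 in ST (2.75 ± 0.38, adjusted p = 4.84e-06). Mcpt8, a basophil protease (2.65 ± 0.41, adjusted p = 2.42e-05), and Hdc, which makes histamine (2.43 ± 0.33, adjusted p = 4.13e-06), were higher in ST as well, as were Prg2 (3.11, adjusted p = 0.0211) and Bst2 (0.65, adjusted p = 0.0395). The members that fell were Clec9a, a lectin receptor of dendritic cells (-1.89 ± 0.42, adjusted p = 0.00129), and Tcf4 (-0.41 ± 0.12, adjusted p = 0.00936). The LT values of Ms4a2 and Mcpt8 rest on few reads (6 and 1 in the 3 LT libraries together).

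Genes of red cell precursors were on the opposite side, and 6 of the 12 largest falls in ST were members of the erythroid list. Of 34 measured erythroid genes, 23 were lower and none higher in ST, with a median of -1.27, and 23 were lower with length and GC trends removed. Ermap, an erythroblast membrane protein, was listed at 263, 322 and 232 in LT and 18.6, 15.1 and 18.6 in ST (-3.88 ± 0.34, adjusted p = 9.67e-07). Ank1, an ankyrin that ties the red cell skeleton to its membrane, was listed at 82, 104 and 76.5 in LT and 7.41, 6.46 and 3.66 in ST (-3.72 ± 0.35, adjusted p = 7.56e-08). Rhag, the Rh-associated glycoprotein, was listed at 59.1, 55 and 60.3 in LT and 3.13, 5.47 and 8.65 in ST (-3.22 ± 0.55, adjusted p = 0.000456). Every LT value lay above every ST value in these 3 genes, and the means differed 15.6-fold, 14.9-fold and 10.1-fold.

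The alpha and beta spectrins Spna1 (-3.04 ± 0.49, adjusted p = 0.000148) and Spnb1 (-2.98 ± 0.59, adjusted p = 0.00149) and the water channel Aqp1 (-2.81 ± 0.45, adjusted p = 0.000279) were the other 3. The 6 largest falls outside the list were Pklr, a pyruvate kinase of red cells and liver (-3.66 ± 0.34, adjusted p = 1.71e-08), the membrane protein Tmem56 (-3.61 ± 0.40, adjusted p = 4.15e-07), Atp1b2, a subunit of the sodium pump (-3.55 ± 0.33, adjusted p = 1.06e-07), Atp7b, a copper transporter (-3.38 ± 0.29, adjusted p = 6.55e-09), the carboxylesterase Ces2g (-3.13 ± 0.33, adjusted p = 2.41e-06) and the kinase Nrk (-2.92 ± 0.39, adjusted p = 9.65e-06). Klf1, the erythroid master factor, was listed at 30.5, 47.8 and 39.1 in LT and 6.09, 4.14 and 4.84 in ST (-2.73 ± 0.39, adjusted p = 1.11e-05), and its partner Gata1 at 29.1, 37.8 and 26 in LT and 5.1, 18.7 and 4.84 in ST (-1.83 ± 0.41, adjusted p = 0.00138). ST library B had the highest Gata1 value of its group, still below every LT value. The haem enzyme Cpox (-2.37 ± 0.23, adjusted p = 1.59e-07), the transferrin receptor Tfrc (-1.27 ± 0.18, adjusted p = 1.03e-05) and the erythropoietin receptor Epor (-1.27, adjusted p = 0.0027) were lower in ST.

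The haemoglobin genes were not called. Hba-a1 averaged 5.24 ± 2.09 in LT and 3.45 ± 0.601 in ST (SD, n = 3 each; adjusted p = 0.748), and Hbb-b1 5.38 ± 2.33 and 12.5 ± 4.67 (adjusted p = 0.483), where near-identical globin copies could share reads. Alas2, the first enzyme of haem synthesis in red cells (0.52, adjusted p = 0.302), and Slc4a1, the band 3 anion exchanger (-0.56, adjusted p = 0.629), did not pass either. The 22 erythroblast markers, which share members with the erythroid list, had summed values of 1669 to 1976 in LT, 626 to 839.6 in ST and 459 to 565 in MPP libraries, with 11 lower and none higher in ST. The part of erythroblasts in the erythroid values was not tested.

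**Figure D4:**
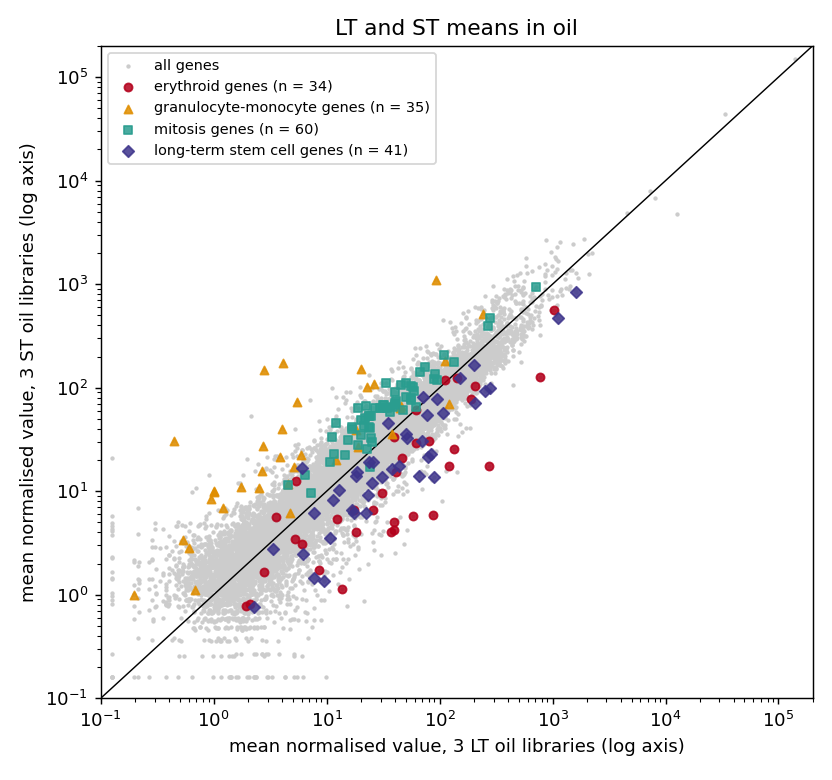
Mean normalised value of each gene in the 3 ST libraries (y, log axis) against the 3 LT libraries (x, log axis) of the oil arm, with the line of equal values. Erythroid and long-term stem cell genes lie mostly below the line, granulocyte-monocyte and mitosis genes mostly above it.

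Mitosis genes were higher in ST almost throughout. Of 60 measured members, 46 were higher and none lower in ST, with a median of 0.84 and 43 higher with length and GC trends removed. Their promoters are shown for the 6 members with the smallest p, in that order, since most promoters of the list hold at least 1 of 2 short elements. The windows hold 250 bases before and 50 after the start, from RefSeq on GRCm38.p6, and capitals mark CCAAT or its complement ATTGG (the CCAAT box) and TTTGAA or TTCAAA (the CHR element). Matches that overlap form a single run of capitals.
Ndc80 promoter, chr17:71526808-71527107, minus strand: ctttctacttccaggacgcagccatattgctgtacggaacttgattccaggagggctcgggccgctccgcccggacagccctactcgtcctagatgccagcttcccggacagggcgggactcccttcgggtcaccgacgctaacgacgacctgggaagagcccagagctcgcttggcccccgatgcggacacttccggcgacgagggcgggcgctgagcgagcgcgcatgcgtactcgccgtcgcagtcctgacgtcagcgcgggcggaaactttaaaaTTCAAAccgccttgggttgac
Spc25 promoter, chr2:69206164-69206463, minus strand: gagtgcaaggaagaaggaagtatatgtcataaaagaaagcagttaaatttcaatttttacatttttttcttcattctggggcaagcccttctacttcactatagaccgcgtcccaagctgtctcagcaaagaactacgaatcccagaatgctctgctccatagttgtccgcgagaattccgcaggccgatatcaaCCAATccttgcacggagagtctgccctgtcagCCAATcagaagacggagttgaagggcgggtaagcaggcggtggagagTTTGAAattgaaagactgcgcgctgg
Mad2l1 promoter, chr6:66534971-66535270, plus strand: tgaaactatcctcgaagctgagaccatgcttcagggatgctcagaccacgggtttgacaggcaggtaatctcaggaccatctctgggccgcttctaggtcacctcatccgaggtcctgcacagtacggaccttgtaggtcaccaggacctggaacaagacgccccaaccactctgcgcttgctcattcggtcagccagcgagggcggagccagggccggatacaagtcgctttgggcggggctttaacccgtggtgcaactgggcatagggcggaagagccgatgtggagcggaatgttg
Cdk1 promoter, chr10:69352863-69353162, minus strand: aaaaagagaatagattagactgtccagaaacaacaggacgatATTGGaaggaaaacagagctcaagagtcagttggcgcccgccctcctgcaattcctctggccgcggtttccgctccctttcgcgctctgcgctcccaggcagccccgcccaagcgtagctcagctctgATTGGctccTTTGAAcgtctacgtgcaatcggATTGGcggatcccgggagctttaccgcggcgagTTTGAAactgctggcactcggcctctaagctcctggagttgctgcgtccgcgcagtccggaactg
Cks2 promoter, chr13:51644982-51645281, plus strand: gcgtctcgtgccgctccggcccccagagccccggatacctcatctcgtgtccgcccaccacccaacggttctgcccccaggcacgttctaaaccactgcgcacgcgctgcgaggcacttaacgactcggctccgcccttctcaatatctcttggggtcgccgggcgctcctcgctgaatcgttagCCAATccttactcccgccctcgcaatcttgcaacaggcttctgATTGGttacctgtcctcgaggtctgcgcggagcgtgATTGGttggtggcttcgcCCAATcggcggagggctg
Kif23 promoter, chr9:61946750-61947049, minus strand: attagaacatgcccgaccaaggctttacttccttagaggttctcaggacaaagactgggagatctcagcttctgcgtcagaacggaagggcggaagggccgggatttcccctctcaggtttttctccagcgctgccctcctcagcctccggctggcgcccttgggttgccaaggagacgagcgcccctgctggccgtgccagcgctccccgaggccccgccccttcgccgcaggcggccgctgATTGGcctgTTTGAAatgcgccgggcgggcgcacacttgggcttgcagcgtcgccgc

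The CCAAT box was found in 74.5% of 55 windows of the mitosis list and in 37.4% of all 32851 windows of the table. The CHR element was found in 74.5% of the mitosis windows and in 17.9% of all. Of 11940 windows of measured genes, 37.8% held the CCAAT box and 12.3% the CHR element. Cdk1, Spc25 and Kif23 hold both, Ndc80 holds the CHR element alone, Cks2 the CCAAT box alone, and the Mad2l1 window neither set of letters. In the DNA replication list the shares were 57.4% and 12.8% of 47 windows. The E-box CACGTG, its own complement, was in 14.9% of those windows and in 23.8% of 42 windows of the MYC network and ribosome biogenesis list. It was in 5.5% of the mitosis windows, in 7.2% of all windows and in 9.8% of those of measured genes. These are counts of letters and not of bound sites.

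Cdk1, the kinase that drives entry into mitosis, was listed at 27.8, 21.7 and 18 in LT and 71.9, 74.4 and 51.4 in ST (1.51 ± 0.20, adjusted p = 3.06e-06). Ndc80 and Spc25, subunits of the kinetochore complex that holds microtubules, were listed at 16.2, 20.3 and 20.2 in LT and 68, 64.5 and 56.4 in ST (1.69 ± 0.16, adjusted p = 1.71e-08) and at 11.4, 15.5 and 9.61 in LT and 47.2, 54.8 and 35.3 in ST (1.83 ± 0.23, adjusted p = 1.6e-06). Mad2l1, the spindle checkpoint protein, was listed at 52.8, 40.2 and 42.5 in LT and 109, 116 and 92.2 in ST (1.21 ± 0.16, adjusted p = 2.04e-06). No ST value of these 4 genes fell within the LT range. Kif23, a kinesin of the dividing cell's midzone, rose by 1.04 and Cks2, a subunit of the kinase Cdk1, by 1.49 (adjusted p 2.16e-05 and 6.68e-06). Some genes of the same stage did not pass, among them the cyclins Ccnb1 (0.33, adjusted p = 0.196) and Ccna2 (0.32, adjusted p = 0.151), Mki67 (0.43, adjusted p = 0.299) and the kinase Plk1 (-0.50, adjusted p = 0.09).

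DNA replication genes were higher in part. Of 49 measured members, 22 were higher and 1 lower, with a median of 0.48. Pcna, the sliding clamp, was listed at 236, 201 and 188 in LT and 493, 491 and 378 in ST (1.12 ± 0.14, adjusted p = 7.41e-07), and Prim1, the primase, at 46.4, 41.3 and 38 in LT and 110.4, 106 and 90.7 in ST (1.27 ± 0.15, adjusted p = 4.28e-07). Tyms, which makes thymidylate (1.15 ± 0.19, adjusted p = 7.43e-05), and Rfc4, a subunit of the clamp loader (1.38 ± 0.21, adjusted p = 1.44e-05), were higher as well. The helicase subunits Mcm2 (-0.29), Mcm3 (0.11), Mcm4 (-0.21), Mcm6 (0.02) and Mcm7 (0.24) did not pass, and Mcm5 did (0.44, adjusted p = 0.0329). The member that fell was Ccne1, cyclin E1 (-1.36 ± 0.29, adjusted p = 0.000845), while Ccne2 rose (0.67, adjusted p = 0.0253).

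Genes of G1 control did not rise with those of mitosis. Of 21 cyclins, kinases and RB family members, 3 were higher and 8 lower in ST. Ccnd2, cyclin D2, was listed at 364, 383 and 338 in LT and 146, 141 and 174 in ST (-1.24 ± 0.13, adjusted p = 9.02e-08), without overlap. Rb1 (-0.82 ± 0.20, adjusted p = 0.0035) and its relative Rbl2 (-0.71 ± 0.13, adjusted p = 0.000202), which hold cells out of the cycle, were lower, and Rbl1 was higher (0.62 ± 0.13, adjusted p = 0.000941). Of 31 inhibitors and quiescence genes, 9 were lower and 1 higher. These genes summed to 2610 to 2786 in LT, 1654 to 2028 in ST and 2983 to 3118 in MPP libraries. Cdkn1c, the inhibitor p57 of resting stem cells, was listed at 16.2, 17.9 and 16.3 in LT and 4.11, 8.45 and 7.18 in ST (-1.28 ± 0.30, adjusted p = 0.0021), and the forkhead factors Foxo1 (-1.05 ± 0.17, adjusted p = 4.92e-05) and Foxo3 (-0.95 ± 0.13, adjusted p = 2.68e-06) were lower in ST. Cdkn1a (0.20) and Cdkn1b (-0.16) did not pass, and the member that rose was Cdkn2c (0.95, adjusted p = 0.0169).

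Genes of the respiratory chain and ATP synthase encoded in the nucleus were higher in ST. Of 57 measured members, 37 were higher and none lower, with a median of 0.71. Summed over the list, values were 3921 to 4293 in LT, 5187 to 5910 in ST and 3711 to 3756 in MPP libraries. The MPP libraries, from 1 week of treatment and numbered in the run of the LT libraries, thus did not share the rise of ST. Their median transcript length was 635 bases, and with length and GC trends removed 29 were higher and 3 lower. Ndufa4 was listed at 45.1, 41.6 and 44.2 in LT and 178, 206 and 149.9 in ST (1.99 ± 0.17, adjusted p = 3.81e-09), and Cox7b, a subunit of cytochrome oxidase, at 36, 45.1 and 32.5 in LT and 121, 142 and 91.9 in ST (1.61 ± 0.20, adjusted p = 1.09e-06). Both were apart in every library. Sdha (-0.29), Ndufs1 (-0.22), Uqcrc1 (-0.12) and Atp5a1 (-0.11) did not pass.

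The 15 genes of the mitochondrial genome gave no call by limma (2 at an unadjusted p under 0.05), none by edgeR and 1, higher in ST, by DESeq2. With only these 6 libraries in the fit, 2 were higher and 4 lower, the highest counts over the alternatives. The smallest p belonged to mt-Co3, cytochrome oxidase subunit 3, listed at 765, 714 and 1078 in LT and 1078, 1406 and 1132 in ST (0.51 ± 0.22, adjusted p = 0.0904), and LT library C and ST library A were alike. It passed with only these 6 libraries, with library weights, with DESeq2, without LT library C and without LT tamoxifen library A in the shared fit. Of 37 glycolysis and hypoxia genes, 5 were higher and 8 lower (3 higher without LT library A, 5 lower without LT library B or without ST library A, and 13 lower with length and GC trends removed or without LT tamoxifen library A in the shared fit). The share higher lay near the 12.5% of all genes, and the share lower was little above their 16.0%. Pgam1 (1.28 ± 0.15, adjusted p = 7.24e-07), Pgk1 (0.62 ± 0.12, adjusted p = 0.000427) and Gapdh (0.60 ± 0.14, adjusted p = 0.00206), enzymes of the glycolytic chain, were higher, and Slc16a1, the lactate transporter, was lower (-1.19 ± 0.16, adjusted p = 4.84e-06). Gapdh could share reads with its processed copies. Ribosome biogenesis and MYC network genes split, with 9 of 43 higher and 12 lower in ST, and 5 higher and 13 lower with length and GC trends removed. Cad, which starts pyrimidine synthesis, was listed at 149, 139 and 133 in LT and 54.8, 40.9 and 54.1 in ST (-1.48 ± 0.15, adjusted p = 5.75e-08), while Npm1 rose (0.68, adjusted p = 0.00453) and Myc did not pass (-0.44, adjusted p = 0.0963).

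Receptors through which the niche acts were lower in part. Of 43 cytokine and growth factor receptors, 15 were lower and 4 higher in ST. Their sums were 3500 to 3717 in LT, 2196 to 2719 in ST and 3939 to 4198 in MPP libraries. Besides Kit and Eng, Tgfbr3, the betaglycan co-receptor, was listed at 139.5, 156 and 103 in LT and 49.9, 54.5 and 44.1 in ST (-1.39 ± 0.19, adjusted p = 4.77e-06), and Insr (-0.74 ± 0.12, adjusted p = 4.93e-05) and Igf1r (-0.89 ± 0.15, adjusted p = 7.43e-05), receptors of insulin and its growth factor, were lower. The 28 genes of TGF-beta and BMP signalling summed to 1424 to 1500 in LT, 924 to 998 in ST and 1305 to 1396 in MPP libraries. Of these genes, 10 were lower and none higher in ST, and 6 were lower without LT library B. Bmpr2 (-1.14 ± 0.20, adjusted p = 0.000109), the repressor Ski (-1.33 ± 0.14, adjusted p = 1.23e-07) and Smad3 (-0.68 ± 0.14, adjusted p = 0.000717) were among them, while the receptors Tgfbr1 (-0.30) and Tgfbr2 (-0.32) did not pass. The receptors higher in ST were Csf3r, the granulocyte colony-stimulating factor receptor (0.68, adjusted p = 0.0187), Csf2rb (0.53, adjusted p = 0.0458), Il10rb (0.62, adjusted p = 0.021) and Pdgfrb (0.87, adjusted p = 0.0159). Their share lay under that of all genes higher in ST, and none was called without LT library A or LT library B and 1 without ST library B or ST library C.

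Of 31 adhesion and retention genes, 12 were lower and 3 higher. Sums over this list were 3305 to 3474 in LT, 2503 to 2739 in ST and 4025 to 4295 in MPP libraries. Robo4 (-1.27 ± 0.20, adjusted p = 2.77e-05), Plxnc1 (-1.14 ± 0.12, adjusted p = 1.25e-07) and Itga5, the fibronectin receptor subunit (-1.07 ± 0.18, adjusted p = 7.02e-05), were lower in ST. Itgal, a subunit of the leukocyte integrin LFA-1, rose by 1.08 (adjusted p = 0.000143). Cxcr4, the receptor that holds stem cells in the marrow, did not pass (0.43, adjusted p = 0.144). Megakaryocyte and platelet genes split, with 7 of 32 lower and 6 higher, and 3 higher without LT library B or without ST library B. Vwf and Zfpm1 (-1.33 ± 0.20, adjusted p = 1.44e-05) were lower, and Rgs18 (0.80 ± 0.15, adjusted p = 0.000173) and Ctla2a (1.71 ± 0.31, adjusted p = 0.000748) were higher in ST.

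Genes set up in multipotent progenitors were higher in ST, with 13 of 21 higher and none lower (median 1.14). Cd52 was listed at 5.31, 3.9 and 7.38 in LT and 27.5, 33.6 and 24.8 in ST (2.20 ± 0.29, adjusted p = 2.19e-06), and Emb, an adhesion protein, rose by 1.14 (adjusted p = 3.23e-05). Dntt, the template-free polymerase of lymphoid precursors, did not pass (0.90, adjusted p = 0.179). Of 33 lymphoid-primed genes, 1 was higher and 6 lower, the share lower being near the 16.0% of all genes. This balance depended on the analysis, with 4 higher and 5 lower with length and GC trends removed, 5 higher with edgeR and 2 higher without LT library C, ST library B or ST library C. Tcf7, a T lineage factor (-1.67 ± 0.37, adjusted p = 0.0012), Notch1 (-0.85 ± 0.18, adjusted p = 0.000958) and Ikzf1, which encodes Ikaros (-0.70 ± 0.13, adjusted p = 0.000222), were lower in ST.

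In the list of imprinted genes of the stem cell network, 11 of 21 were lower in ST and none higher (median -0.76). The list also holds Igf1r, which is not itself imprinted, is among the 11 and is counted with the receptors too. Igf2r, the decoy receptor of insulin-like growth factor 2, was listed at 56.8, 86 and 65.3 in LT and 6.42, 14.1 and 10.7 in ST (-2.66 ± 0.23, adjusted p = 1.71e-08). Meg3, a noncoding RNA of the Dlk1 locus, was listed at 26.2, 37.3 and 23.5 in LT and 1.81, 6.13 and 3.66 in ST (-2.70 ± 0.47, adjusted p = 0.000109). Grb10, an adaptor that restrains growth signals, was listed at 141, 175 and 121 in LT and 31.1, 34.3 and 37.4 in ST (-2.04 ± 0.22, adjusted p = 2.88e-07). The LT and ST values of these 3 genes did not overlap, and Igf2r had MPP values of 57.4 ± 9.35 (SD, n = 3), near the LT level, whereas Grb10 averaged 8.87 ± 3.96 there. H19 (-0.39, adjusted p = 0.49) and Mest (0.82, adjusted p = 0.136) did not pass.

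Interferon response genes were lower in 16 of 57 cases and higher in 4. The count of lower members was 8 without LT library A and 7 without LT library C, without ST library A or without ST library B. It was 9 without a variance trend, and the count of higher members was 2 without LT library B and 1 without ST library B. The guanylate-binding proteins Gbp6 (-3.03 ± 0.52, adjusted p = 0.000317), Gbp9 (-2.72 ± 0.33, adjusted p = 7.04e-07) and Gbp4 (-2.52 ± 0.38, adjusted p = 1.74e-05) fell most, and Isg15 (1.28, adjusted p = 0.0144) and the immunoproteasome subunit Psmb9 (1.49, adjusted p = 0.0205) rose. Gbp6 was listed at 23.2, 30 and 22.1 in LT and 0.165, 1.49 and 10.1 in ST, so its 3 ST libraries were far apart. Of 24 MHC genes, 3 were higher and 2 lower (1 higher without LT library B or ST library B, 1 lower without LT library A, LT library C, ST library A or ST library C). For these MHC genes the share higher was that of all genes (12.5%), and the share lower was under the 16.0% of all genes. Cd74, the invariant chain, was listed at 62.8, 93 and 76.2 in LT and 10.4, 21 and 21 in ST (-2.13 ± 0.29, adjusted p = 2.72e-05), while H2-Ob rose by 1.47 (adjusted p = 2.32e-06).

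Of 25 immediate early genes, 4 were higher and 2 lower, counts that fell to 0 higher without LT library C and 0 lower without LT library A or ST library A. The share higher was little above the 12.5% of all genes, and the share lower was under their 16.0%. Fos was listed at 0.729, 5.79 and 0.418 in LT and 6.09, 29.7 and 11.3 in ST (2.44 ± 0.85, adjusted p = 0.0475) and Jun at 6.36, 26.5 and 17.7 in LT and 39, 90.3 and 47.3 in ST (1.85 ± 0.62, adjusted p = 0.0414). Library B was the highest of its group in both populations, and both calls were lost without LT library A, LT library C, ST library B or ST library C, and that of Jun also without ST library A. The Fos call was also lost with length and GC trends removed and without LT tamoxifen library A in the shared fit, and the Jun call with only these 6 libraries. Of 14 noncoding RNAs, 7 were higher, among them the small nucleolar RNA hosts Snhg1 (1.29 ± 0.15, adjusted p = 3.88e-07) and Gas5 (0.93 ± 0.14, adjusted p = 2.18e-05), and 3 lower; with length and GC trends removed 4 of 8 were higher. Lsm7, a subunit of the RNA decay ring and the last of the 12 largest rises, was listed at 16.2, 13.1 and 0.139 in LT and 31.4, 44.2 and 39.7 in ST (2.59 ± 0.79, adjusted p = 0.027). LT library C stood apart there, and the call was lost without any one of the ST libraries, with no pseudocount, with library weights and with only these 6 libraries.

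Of 18 estrogen receptor genes and targets, 8 were lower and 2 higher in ST, a larger share lower than over all genes (16.0%), and none was higher without LT library B or ST library A. The receptor coactivator Ncoa2 (-0.67 ± 0.12, adjusted p = 0.000188) and the receptor-interacting protein Nrip1 (-0.58 ± 0.12, adjusted p = 0.000414) were among those lower. Of 28 p53 targets 1 was higher and 5 lower, of 17 BCL2 family members 2 and 2, and of 20 genes of retinoid and aldehyde metabolism none and 4. In these lists the share lower lay near the 16.0% of all genes. Zmat3 (-1.48 ± 0.25, adjusted p = 8.1e-05) fell among the p53 targets, Bcl2l13 (-0.82 ± 0.14, adjusted p = 5.97e-05) in the BCL2 family and Rxra (-1.48 ± 0.29, adjusted p = 0.000288) among retinoid genes. Among markers of other marrow cells, none of 14 B cell markers were higher and 2 lower, 1 of 15 T and NK cell markers higher, 4 of 21 macrophage and monocyte markers higher and 1 lower, and 3 of 19 stroma and endothelium markers higher and 5 lower (1 higher without LT library B). Their summed values in LT and ST were 244 to 600.3 and 162 to 295 for B cells, 65.3 to 72.6 and 134 to 181 for T and NK cells and 87.6 to 99.5 and 179 to 219 for macrophages and monocytes. Their part in the results was not tested.

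The same population difference was measured in 6 further libraries, 3 LT and 3 ST from mice given tamoxifen for 2 weeks, which share no sample with the oil comparison. There, 1796 genes were higher (12.5%) and 1595 lower in ST (11.1%). With only these 6 libraries in the fit the counts were 985 and 795. LT tamoxifen library A stood apart, with the highest length slope of all libraries (0.126). Its GC slope was -0.0316 log2 units per percent, against -0.0086 to 0.0122 in the other 17. Mitochondrial ribosomal RNAs took 25.5% of its reads, not far above the 24.4% of ST tamoxifen library A. Without LT tamoxifen library A, 1458 genes were higher and 1265 lower. Of the 1802 genes higher in oil, 1018 (56.5%) were also called higher with tamoxifen, which is 56.7% of the tamoxifen list, and 9 were called lower. Of the 2302 genes lower in oil, 1121 (48.7%) were also called lower, 70.3% of the tamoxifen list, and 2 were called higher. Both comparisons came from the shared fit over all libraries, so each gene had the same standard error in oil and with tamoxifen. The calls of the arms were therefore not independent, and a gene of low spread could pass in both. The overlap with separate fits for the arms was not tested. The difference had the same sign for 92.6% and 91.9% of the genes higher and lower in oil. The negative length slope of the ST libraries was present in both arms.

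The median difference of 8 of the 36 lists had another sign with tamoxifen. They were the sort markers, lymphoid-primed genes (8 higher and 5 lower with tamoxifen), G1 genes, inhibitors and quiescence genes, MYC network and ribosome biogenesis genes, glycolysis and hypoxia genes (11 higher and 5 lower), noncoding RNAs and stroma markers. The lists with the highest shares in oil stayed on their side. Mitosis genes were higher in 48 of 60 and lower in none, granulocyte-monocyte genes higher in 30 of 35, erythroid genes lower in 25 of 34 and long-term stem cell genes lower in 15 of 41. Without LT tamoxifen library A the counts were 52, 28, 17 and 15. Respiratory chain genes were higher in 27 of 57, 14 with only these 6 libraries in the fit. Elane differed by 7.51 with tamoxifen against 5.23 in oil, Mpo by 6.74 against 3.55, Cd48 by 3.21 against 3.07, Ermap by -2.46 against -3.88 and Ank1 by -2.78 against -3.72. None of these 5 genes passed the test of the change in difference.

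**Figure D5:**
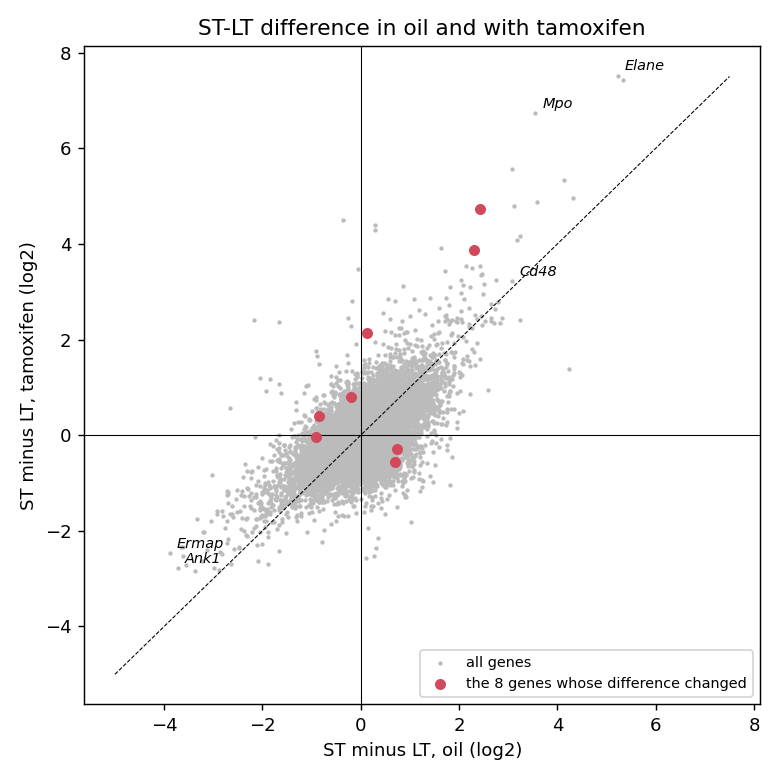
ST minus LT difference of each gene (log2) with tamoxifen (y) against oil (x), with the line of equal differences (dashed). The 8 genes whose difference changed between the arms are marked, and 5 named genes keep their sign in both.

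The difference between LT and ST itself changed with treatment for 8 genes (0.0555%), 6 with a larger and 2 with a smaller ST minus LT value under tamoxifen. Atp8b4, a phospholipid flippase, was listed in oil at 22.2, 20.6 and 28.8 in LT and 156, 121 and 118 in ST, and with tamoxifen at 5.8, 5.85 and 5.56 in LT and 159.5, 185 and 193 in ST. The populations were apart in both arms, and the LT values with tamoxifen lay below all LT values in oil. Cs, citrate synthase, was listed in oil at 231, 207 and 214 in LT and 103, 117 and 128 in ST and with tamoxifen at 209, 246 and 232 in LT and 224, 211 and 228 in ST, so that the groups were apart in oil and overlapped with tamoxifen. Depending on the analysis, the number of such genes ran from 0 to 157.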

How the data were processed

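RNA was extracted with Picopure, amplified as cDNA by the Ovation V2 kit, sonicated and made into Illumina TruSeq libraries, per the labels' protocols. The deposited table, in which the authors give 1 normalised signal per gene and library, holds 14419 genes and 18 libraries. The submitters' processing notes name cutadapt, Picard, RSEM 1.17, limma and the build NCBIM37, with no order. Dividing by 1 constant per library and subtracting 0.5 gave whole reads for 100% of values (tolerance 0.001 read), and these recovered reads gave depths and served edgeR 4.0.16 and DESeq2 1.42.0 as alternatives.

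From the deposited values, log2(value + 1) was fitted with limma 3.58.1 in R 4.3.3 over all 18 libraries, 1 mean per group, with a variance trend and robust estimation (12 residual degrees of freedom). P-values were adjusted by Benjamini-Hochberg over all 14419 genes, with a threshold of 0.05 and no filter. The contrasts were ST against LT in oil, the same with tamoxifen, and the difference of both. The test was checked on simulated data.

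The comparison, gene lists and named-gene rule were chosen with earlier results of these data known. The text draws its names from the 12 largest rises and 12 largest falls among called genes above the median gene's mean whose groups did not overlap, the smallest p-values of each list and the sort markers, apart from a few genes that are not reported here. Other members were singled out after their values were seen. Transcript lengths and GC content are medians over GENCODE M21 transcripts of 13693 genes (95.0%). Promoters come from RefSeq (GRCm38.p6), matched by symbol for 52 of 60 mitosis genes, and no file coordinates were used. Alternatives covered the pseudocount, a filter on low values, quantile normalisation, library weights, the variance model, the fitted groups, the replicate letter, other count tools, each library left out, and removal of length and GC trends. The replicates are stated to be biological.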

Additional observations from a re-analysis of the deposited data

Results flagged for a closer look

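The ST minus LT difference changed between oil and tamoxifen for 8 genes, by the interaction term fitted over all genes with limma, of 1860 at an unadjusted p under 0.05. The change, tamoxifen minus oil on the log2 scale, was 2.32 for Atp8b4 (adjusted p = 0.0212), 2.02 for Mtus1, 1.24 for Gstm1, 1.00 for Eno1, 0.86 for Cs and -1.27 for Gm10060 (adjusted p = 0.0389 for these 5), and 1.56 for BC035044 and -1.04 for Gm14391 (adjusted p = 0.0452). Mtus1, listed at 7.61, 14.7 and 7.94 in LT and 10, 11.8 and 10.1 in ST in oil and at 5.8, 5.28 and 6.16 in LT and 23.2, 31.6 and 32.5 in ST with tamoxifen, overlapped between the populations in oil and did not with tamoxifen. BC035044 was listed at 18.2, 11.7 and 14.6 in LT and 80.8, 67.1 and 81.6 in ST in oil and at 3.42, 6.42 and 3.76 in LT and 75.1, 93 and 66.6 in ST with tamoxifen. Eno1, Gm10060 and Gm14391 belong to families with near-identical copies, so reads could be split between them. Which genes pass depends on the analysis, and leaving out LT library A, LT library C or ST library B of the oil arm, or LT library C or ST library C of the tamoxifen arm, left none.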

How the results depend on the processing

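No alternative turned a called gene of the oil comparison into a call in the other direction, and its counts ran from 3158 to 4822, within 1.5 times 4104. On the recovered reads, edgeR called 3982 genes and DESeq2 4142. Of 190 single genes past the threshold that were followed through the alternatives, 157 kept their call under every alternative. Cd93 changed direction with length and GC trends removed (0.0451, adjusted p = 0.833). The tamoxifen comparison gave 1780 calls, 985 higher and 795 lower, with only its groups in the fit. The count of genes whose difference changed was unstable. It was 2 (2 higher, 0 lower) with only the groups compared, 99 (63 and 36) with library weights, 0 without a variance trend (1830 at an unadjusted p under 0.05, and 0 in each direction), 2 (2 and 0) with edgeR, 157 (89 and 68) with DESeq2 and 21 (16 and 5) with length and GC trends removed. Quantile normalisation gave 2 higher and 5 lower, and no pseudocount 1 lower. Leaving out single libraries gave 0 to 122 genes, 0 to 74 higher and 0 to 48 lower. The highest counts came without LT library A of the tamoxifen arm (122), ST library C of the oil arm (80), LT library B (53) and ST library A (19) of the tamoxifen arm, and the others gave 0 or 1, with 1545 to 1979 at an unadjusted p under 0.05 where none was called. The cause was not tested.

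The replicate letters are shared by LT and ST libraries of an arm. Same-letter correlations of the deviations from the group means were 0.05, 0.05 and 0.10 in oil and 0.14, 0.08 and 0.09 with tamoxifen. Each library correlated best with its own letter. The labels state no pairing, so the main fit was unpaired and the letter served as a block in an alternative. With this block, 4558 genes were called in oil, against 4104 in the main fit. For the change in difference 125 were called (82 higher, 43 lower), against 8. Flt3 (adjusted p = 4.13e-05), Thy1 (adjusted p = 0.0288) and Ly6a (adjusted p = 0.0332) passed in oil with the block. Low read numbers limit genes such as Ms4a3 and, named with their reads above, Ms4a2, Mcpt8 and Fcnb. The ST libraries were the shallower.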
